A study of Homo sapiens with 12 samples.

Results

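The histone deacetylase genes HDAC1 to HDAC10 were followed in K562, an erythroleukaemia line of human origin in which sodium butyrate is used to bring on erythroid differentiation. The members were the rows of the count table with those 10 symbols, of 28278 genes in all, and 9 of the 10 passed the filter on low counts, the exception being HDAC9. Class I held HDAC1, HDAC2, HDAC3 and HDAC8, class IIa held HDAC4, HDAC5, HDAC7 and HDAC9, and class IIb held HDAC6 and HDAC10. Sequencing of total cellular RNA covered 4 groups of 3 libraries: wild-type cells (WT) and HRG1-KO cells (KO), each either untreated or given butyrate. HRG1 is the heme transporter encoded by SLC48A1. Treated cells received 0.75 mM sodium butyrate 24 h after plating and again 48 h later, and were harvested 6 h after the second dose, in a series described as day 8 of differentiation. All groups were grown in the same medium, and whether the untreated cells had a vehicle is not stated. How the knockout was obtained, in how many clones, and whether replicates were grown as separate cultures are not stated either, so p-values measure only the spread between these libraries.

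Histone deacetylases remove acetyl groups from lysines of histones and other proteins. Class I enzymes are mostly nuclear and act within corepressor complexes, class IIa enzymes shuttle between nucleus and cytoplasm and bind MEF2 transcription factors, and in class IIb HDAC6 deacetylates tubulin in the cytoplasm while HDAC10 deacetylates polyamines. Butyrate, a short-chain fatty acid, inhibits the activity of class I and some class II enzymes, so that an effect on the amounts of their RNAs is a separate question.

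Library totals lay between 19963594 and 30348538 counts, and the 10 members took between 0.0756% and 0.119% of a library. SLC48A1, the knockout target, had 73.7 ± 8.42 CPM (counts scaled to library size and, by TMM, composition, as mean ± SD, n = 3) in untreated WT and 5.94 ± 2.74 CPM in untreated KO. The log2 difference was -3.63 (edgeR quasi-likelihood test, adjusted p = 1.82e-05), so the libraries followed their genotype labels. By the same test SLC48A1 did not pass for butyrate in WT (-0.12, adjusted p = 0.893) or in KO (0.43, adjusted p = 0.501), so it does not check the treatment labels. Each of the 10 erythroid markers was above 3 counts in every group, but their summed level differed, from 3473 to 6147 CPM in untreated KO, 4387 to 6395 CPM in treated KO, 8233 to 17933 CPM in untreated WT and 26405 to 56821 CPM in treated WT. It was thus higher with butyrate in WT without overlap, while the KO groups overlapped. The summed markers of T cells, B cells and endothelium stayed at or below 15.8 CPM, with MS4A1 and CDH5 at 0 in every library. The summed myeloid markers ran from 13.4 to 18.5 CPM in untreated WT and from 20.8 to 32.4 CPM in treated WT. In KO they ran from 21.1 to 86.7 CPM untreated and from 63.5 to 134 CPM treated. The megakaryocytic markers ran from 5.30 to 209 CPM over all libraries, mostly ITGA2B, with PF4 at 0. COL1A1, a fibroblast collagen gene, reached 154 CPM in treated cells, and KRT8, an epithelial keratin gene, 155 to 398 CPM over all libraries. The part of these differences in the results for the deacetylases was not tested. On the second principal component replicate 1 of treated WT (40.9) and of treated KO (4.21) lay apart from the other treated libraries (-84.8 to -74.3), and the libraries numbered 1 had the highest share of counts on the ribosomal RNA gene RNA28SN5 in every group, up to 5.63% in treated WT. Results that change without the 4 libraries numbered 1 are given both ways.

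3 members carried the clearest differences in RNA level between the genotypes. For that reason the 250 bases upstream of an annotated transcription start of each are shown, from RefSeq on GRCh38.p14. HDAC1 starts on the plus strand of chromosome 1 (gene chr1:32292083-32333626, window chr1:32291833-32292082). HDAC3 lies on the minus strand (gene chr5:141620881-141636849, window chr5:141636850-141637099), and so does HDAC7 (gene chr12:47782722-47821344, window chr12:47819904-47820153). The HDAC7 window lies inside the annotated gene span, so it precedes an internal start and not the outermost 5′ end of the gene. Each sequence reads 5′ to 3′ on the gene's strand, and capitals mark GGGCGG (a GC box), CCAAT and GATAA, searched on both strands, so that a match on the other strand is spelled as its reverse complement.
HDAC1: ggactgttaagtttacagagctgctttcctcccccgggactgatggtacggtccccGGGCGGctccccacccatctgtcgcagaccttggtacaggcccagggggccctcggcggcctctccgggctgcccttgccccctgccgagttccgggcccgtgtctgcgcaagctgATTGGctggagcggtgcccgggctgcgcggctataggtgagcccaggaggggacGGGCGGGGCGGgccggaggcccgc
HDAC3: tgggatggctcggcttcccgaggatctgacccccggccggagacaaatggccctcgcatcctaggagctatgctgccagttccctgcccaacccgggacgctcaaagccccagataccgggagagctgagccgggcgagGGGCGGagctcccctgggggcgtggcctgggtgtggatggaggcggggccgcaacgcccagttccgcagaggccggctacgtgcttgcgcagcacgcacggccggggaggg
HDAC7: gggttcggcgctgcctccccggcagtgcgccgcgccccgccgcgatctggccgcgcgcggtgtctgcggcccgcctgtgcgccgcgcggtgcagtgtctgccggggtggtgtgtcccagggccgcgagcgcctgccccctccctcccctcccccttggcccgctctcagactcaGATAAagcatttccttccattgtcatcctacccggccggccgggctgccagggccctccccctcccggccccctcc
The HDAC1 window held 3 GC boxes, of which the last overlap by 1 base, and 1 CCAAT box, the HDAC3 window held 1 GC box, and the HDAC7 window held no GC box and 1 GATAA. Of 35116 promoter windows of the same length, 42.6% held GGGCGG, 32% CCAAT and 20.4% GATAA, so each of these matches is common. A motif of the CACCC type that KLF factors bind is CCNCNCCC, searched on either strand and free to overlap itself and the others. It occurred 6 times in the HDAC7 window and 3 times in each of the HDAC1 and HDAC3 windows. Of all windows, 53.4% held at least 1 match, and how many held several was not counted. GC content was 75.6% for HDAC7, 71.6% for HDAC1 and 70.8% for HDAC3, against a median of 58% over all windows. No binding was measured, and a match is a description of the letters only.

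Levels were compared between genes as CPM per kb of the longest RefSeq-matched transcript. In untreated WT the order was HDAC1 (92.4 ± 10.1 CPM per kb, SD, n = 3), HDAC3 (68.7 ± 5.12), HDAC7 (53.1 ± 6.64), HDAC6 (36.8 ± 7.37) and HDAC2 (23.3 ± 2.56). HDAC5 (14.1 ± 5.45), HDAC10 (13.8 ± 0.873) and HDAC8 (9.57 ± 1.13) followed, then HDAC4 (1.72 ± 0.307) and HDAC9 (0.031 ± 0.019). Adjacent members had separate ranges over the 3 libraries down to HDAC2, and the range of HDAC5 took in those of HDAC10 and HDAC8. The place of HDAC2 rests on its transcript length of 9874 bases, since per kb of its coding length of 1464 bases it came first at 157 ± 17.3 CPM per kb, ahead of HDAC1 at 136 ± 14.8. In untreated KO the transcript order began with HDAC1 (142 ± 30.7 CPM per kb), HDAC3 (46.0 ± 4.08) and HDAC2 (23.1 ± 3.78), then HDAC6 (20.8 ± 5.82) and HDAC7 (17.8 ± 7.09). The ranges of HDAC2, HDAC6 and HDAC7 overlapped there.

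HDAC9 was close to the limit of detection. Its counts in replicates 1, 2 and 3 were 3, 11 and 7 in untreated WT, 0, 9 and 21 in treated WT, 0, 4 and 13 in untreated KO and 0, 10 and 2 in treated KO. A count of 3, used as the floor, corresponded to 0.162 CPM in the shallowest library, and no difference between groups was resolvable at this depth.

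**Figure D1:**
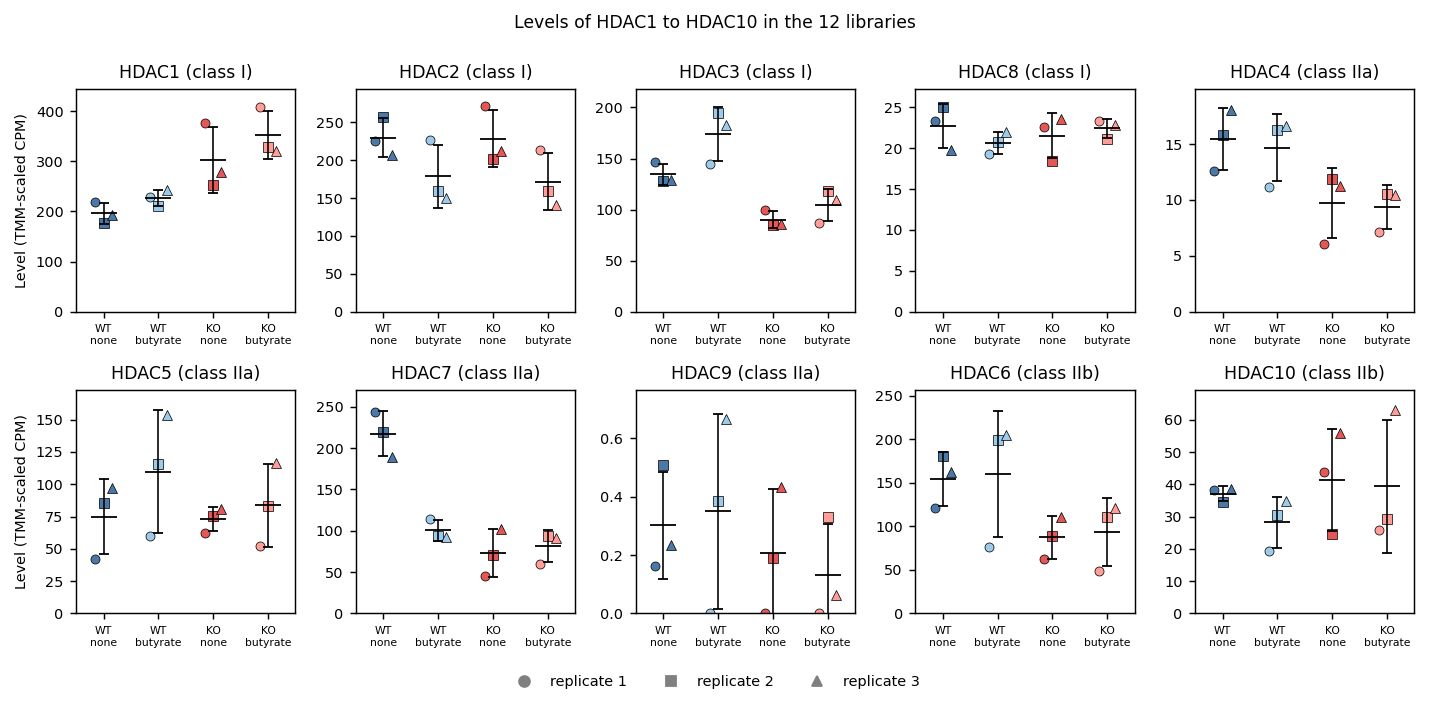
Level of each member in the 12 libraries, in TMM-scaled CPM on axes that start at 0; points are libraries by replicate number, and the bar and whiskers are the mean and SD of 3. HDAC7 sits at 190 to 244 CPM in untreated WT and at 44.8 to 115 CPM in the other 9 libraries, and HDAC1 is higher and HDAC3 lower in KO than in WT within each treatment.

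The first question was whether the inhibitor moved the RNA of its own target family. None of the 9 tested members passed an adjusted p of 0.05 in WT cells, where 2.35% of all 15805 tested genes did, and 1 of the 9, HDAC7, had an unadjusted p under 0.05. Of the members, 1 of 9 had treated and untreated WT libraries that did not overlap, against 21.7% of all genes. In KO cells none of the 9 passed, against 3.40% of all genes, none had an unadjusted p under 0.05 and none had groups without overlap, against 24.4% of all genes. DESeq2 called 1 member in WT and 0 in KO, beside 8.06% and 8.60% of all genes by that tool. With the replicate number as a block, edgeR called 1 member in WT and 0 in KO, beside 8.61% and 11.7% of all genes. The median log2 difference of the members was -0.08 in WT and 0.09 in KO, beside 0.02 and 0.00 for all tested genes.

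HDAC7, a class IIa enzyme that represses MEF2 targets, had the widest butyrate difference of the family. Its levels were 244, 219 and 190 CPM in untreated WT and 115, 94.1 and 92.6 CPM in treated WT. All 3 treated WT libraries lay below all 3 untreated ones. The log2 difference was -1.12 (SE 0.28, 95% interval -1.72 to -0.51), which missed the threshold in the edgeR quasi-likelihood test at an adjusted p of 0.0585. With the replicate number as a block the same test gave -1.12 at an adjusted p of 0.0239, without the libraries numbered 1 it gave -1.14 at 0.00984, without the filter on low counts 0.0407, and DESeq2 gave 0.0101. Of all genes, 8.61% passed with the block, 11.4% without the libraries numbered 1 and 8.06% in DESeq2. Without the filter on low counts 2.04% did, beside 2.35% in the main fit. With 1 of the 6 libraries left out, adjusted p lay between 0.0382 and 0.203, and it passed in 1 of 6 such fits, the one without replicate 1 of treated WT. In KO cells HDAC7 levels were 44.8, 71.1 and 103 CPM untreated and 59.4, 93.2 and 91.7 CPM treated. These ranges overlapped, and the log2 difference was 0.16 (SE 0.28, 95% interval -0.44 to 0.76, edgeR adjusted p = 0.802).

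The difference between both butyrate effects on HDAC7, KO minus WT, was 1.27 on the log2 scale (SE 0.39, 95% interval 0.43 to 2.12). Its unadjusted p in the edgeR quasi-likelihood test was 0.00642 and its adjusted p 0.740, with 0.301 under the replicate block and 0.247 in DESeq2, so the interaction was not called. 0.00% of all genes passed this test, 658 had an unadjusted p under 0.05, DESeq2 called 81 genes and the blocked fit 3. HDAC7 was the one member with an unadjusted interaction p under 0.05, and the log2 interactions of the 9 members ran from -0.35 in HDAC5 to 1.27 in HDAC7.

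Among class I genes, HDAC2, a catalytic subunit of NuRD, SIN3 and CoREST, had 225, 257 and 207 CPM in untreated WT and 227, 160 and 150 CPM in treated WT. Its KO levels were 271, 201 and 213 CPM untreated and 213, 159 and 141 CPM treated. Treated libraries numbered 2 and 3 lay below every untreated library in both genotypes, and those numbered 1 lay among the untreated values. Averaged over genotypes the log2 difference was -0.39 (SE 0.16, edgeR adjusted p = 0.115), which became -0.41 with an adjusted p of 0.0230 under the replicate block, where 26.5% of all genes passed, and -0.54 with 0.0144 without the libraries numbered 1.

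HDAC3, the catalytic subunit of the NCoR and SMRT corepressors, had 146, 128 and 129 CPM in untreated WT and 144, 194 and 183 CPM in treated WT. In KO it had 99.4, 85.2 and 85.8 CPM untreated and 87.2, 118 and 110 CPM treated. Replicates 2 and 3 were higher with butyrate in both genotypes, while replicate 1 was not. The averaged log2 difference was 0.29 (SE 0.13, edgeR adjusted p = 0.138), and 0.47 with an adjusted p of 0.0166 without the libraries numbered 1. HDAC7 averaged -0.48 (SE 0.19, adjusted p = 0.118), and -0.54 with 0.0224 without those libraries.

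In that averaged butyrate comparison 14.6% of all genes passed, 9.22% higher and 5.37% lower with butyrate, and no member did, with 3 of 9 at an unadjusted p under 0.05 and 0 called by DESeq2, beside 19.0% of all genes by that tool. The call on HDAC2, HDAC3 and HDAC7 thus differed with the libraries numbered 1, 0 of 9 with them and 3 of the 10 then tested without, beside 28.8% of all genes without them, so the share of members was near the background. HDAC1 changed by 0.22 (SE 0.14, 95% interval -0.08 to 0.51, adjusted p = 0.313) and HDAC5, a class IIa shuttling repressor, by 0.38 (SE 0.27, 95% interval -0.21 to 0.96, adjusted p = 0.378). For HDAC8, a class I enzyme that deacetylates the cohesin subunit SMC3, the interval was -0.34 to 0.26. Intervals were -0.54 to 0.41 for HDAC4, -0.53 to 0.68 for HDAC6 and -0.79 to 0.33 for HDAC10.

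**Figure D2:**
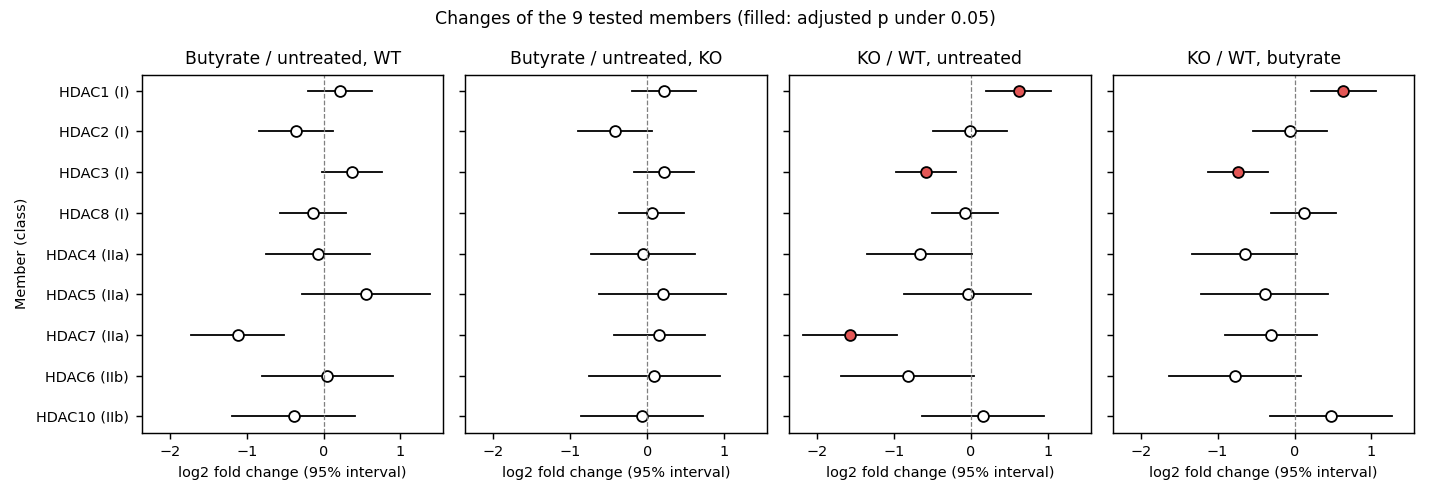
Log2 fold changes of the 9 tested members with 95% intervals in 4 comparisons between groups of 3 libraries; filled points passed an adjusted p of 0.05 in the edgeR quasi-likelihood test. No point is filled for butyrate; HDAC1 (0.62), HDAC3 (-0.58) and HDAC7 (-1.58) are filled in KO against untreated WT, and HDAC1 (0.64) and HDAC3 (-0.73) in KO against treated WT.

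More members passed the threshold for genotype than for butyrate. In untreated cells 3 of 9 passed, HDAC1 higher and HDAC3 and HDAC7 lower in KO, beside 22.6% of all genes (11.7% higher and 10.9% lower). In treated cells 2 of 9 passed, HDAC1 higher and HDAC3 lower, beside 19.0% of all genes (10.1% higher and 8.89% lower). Groups did not overlap for 5 of 9 members in untreated cells and 3 of 9 in treated cells, beside 42.3% and 33.9% of all genes. The members' shares in the separate treatments, 33.3% and 22.2% called, were thus of the order of the background. Under the replicate block 5 and 4 members passed, with HDAC4 and HDAC6 lower in both, beside 33.0% and 29.2% of all genes in that fit. Without the libraries numbered 1 the counts stayed at 3 and 2, beside 26.2% and 24.7% of all genes, with HDAC1 lost and HDAC6 gained in both treatments.

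Averaged over treatments, 6 libraries against 6, 5 of 9 members differed between the genotypes: HDAC1 rose and HDAC3, HDAC4, HDAC6 and HDAC7 fell in KO. That is 55.6% of the tested members, beside 36.6% of all genes (19.0% higher and 17.5% lower). The median log2 difference was -0.21 for the members and 0.01 for all genes. By class, the median was -0.01 for class I, with 1 member higher and 1 lower, -0.66 for class IIa, with 2 of 3 tested members lower, and -0.24 for class IIb, with 1 of 2 lower. The lower level of a transcript in bulk RNA can come from fewer cells that hold it or from less of it per cell, which cannot be told apart here.

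HDAC1, the class I paralog of HDAC2 in the same complexes, had 219, 177 and 192 CPM in untreated WT and 376, 253 and 278 CPM in untreated KO. With butyrate it had 229, 210 and 242 CPM in WT and 408, 329 and 320 CPM in KO. Every KO library lay above every WT library of its treatment, and the replicates numbered 1 were the highest of both KO groups. The log2 difference was 0.62 in untreated cells (SE 0.19, edgeR adjusted p = 0.0352), 0.64 in treated cells (SE 0.19, adjusted p = 0.0370) and 0.63 on average (SE 0.14, adjusted p = 0.00316), a fold of 1.55. The average passed in 12 of 12 fits that left out a library. The separate calls passed in 2 of 6 and 1 of 6 such fits, and without the libraries numbered 1 the differences were 0.51 (adjusted p = 0.0722) and 0.50 (adjusted p = 0.0772).

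HDAC2 did not follow HDAC1. Its averaged log2 difference was -0.04 (SE 0.16, 95% interval -0.38 to 0.30, adjusted p = 0.883), which bounds a rise in KO at 0.30 on the log2 scale. HDAC8 was likewise near 0, at 0.02 (SE 0.14, 95% interval -0.28 to 0.32), with 19.8 to 25.1 CPM in untreated WT and 18.4 to 23.5 CPM in untreated KO.

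HDAC3 was lower in every KO library, at 85.2 to 99.4 CPM untreated and 87.2 to 118 CPM treated, than in any WT library, the lowest of which had 128 CPM. The log2 difference was -0.58 in untreated cells (SE 0.18, edgeR adjusted p = 0.0351), -0.73 in treated cells (SE 0.18, adjusted p = 0.0133) and -0.65 on average (SE 0.13, adjusted p = 0.00149), a level of 0.636 times that in WT. The average passed in 12 of 12 fits that left out a library. The untreated call passed in 0 of 6, with adjusted p from 0.0531 to 0.109, and the treated call in 4 of 6. HDAC1 and HDAC3 thus moved in opposite directions in KO, by similar amounts, in both treatments.

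HDAC7 fell by 1.58 log2 units in untreated KO (SE 0.28, edgeR adjusted p = 0.00157), to 0.335 times its WT level, from the values given above. The call held in 6 of 6 fits that left out a library, with adjusted p from 0.000756 to 0.00976. In treated cells the KO libraries (59.4, 93.2 and 91.7 CPM) overlapped the WT libraries (115, 94.1 and 92.6 CPM), and the log2 difference was -0.30 (SE 0.28, 95% interval -0.90 to 0.30, adjusted p = 0.506). The untreated WT group was the high one: its 3 libraries stood above the other 9. The WT butyrate difference and the untreated genotype difference share those 3 libraries and are not independent.

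The gene lies tail to tail with SLC48A1, the knocked-out gene, and their annotated spans (SLC48A1 at chr12:47753934-47782751 on the plus strand) overlap by 30 bases at the 3′ ends. Since use of strand in the counting is not given in the sources used here, reads in that overlap cannot be assigned to one gene with certainty. The HDAC7 level in untreated WT exceeded that in untreated KO by 145 CPM, and the whole level of SLC48A1 in untreated WT was 73.7 CPM. In treated cells SLC48A1 was lower in KO by 59.8 CPM, and HDAC7 levels overlapped. The part of the shared bases in the HDAC7 difference was not tested. Of the next tested genes, VDR, the vitamin D receptor, had 7.30 to 9.48 CPM in untreated WT and 0 to 0.523 CPM in untreated KO (log2 difference -4.82, adjusted p = 0.0242), TMEM106C was 0.92 higher (adjusted p = 0.00641), and COL2A1, a cartilage collagen gene, had 0 counts in all 6 WT libraries and 212 to 331 CPM in the KO libraries. SENP1 differed by -0.10 (95% interval -0.74 to 0.54). In treated cells VDR differed by -0.58 (edgeR adjusted p = 0.785). On the other side of SLC48A1, in untreated cells, RAPGEF3 (-1.34), ENDOU (0.11) and RPAP3 (-0.40) did not pass, and PCED1B was lower in KO (-4.85, edgeR adjusted p = 0.00652). Differences between the genotypes at this locus thus ran in both directions.

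HDAC4, a class IIa repressor, had 12.6, 15.8 and 18.1 CPM in untreated WT and 6.10, 11.8 and 11.2 CPM in untreated KO. With butyrate it had 11.2, 16.2 and 16.6 CPM in WT and 7.12, 10.5 and 10.4 CPM in KO. KO lay below WT without overlap in both treatments. The averaged log2 difference was -0.66 (SE 0.22, edgeR adjusted p = 0.0339), and passed in 6 of 12 fits that left out a library, and failed most clearly (0.0788) when untreated WT lost replicate 3. The separate differences of -0.67 (adjusted p = 0.151) and -0.65 (adjusted p = 0.177) did not pass, but gave adjusted p of 0.0253 and 0.0400 under the replicate block. Without the libraries numbered 1 the averaged difference was -0.62 (adjusted p = 0.0123). HDAC5 had 42.0, 85.7 and 97.0 CPM in untreated WT and 62.4, 75.8 and 80.5 CPM in untreated KO, which overlapped, and an averaged log2 difference of -0.21 (SE 0.27, 95% interval -0.80 to 0.37).

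HDAC6, the tubulin deacetylase of class IIb, had 121, 181 and 162 CPM in untreated WT and 62.1, 89.1 and 111 CPM in untreated KO. With butyrate it had 76.1, 199 and 204 CPM in WT and 48.9, 110 and 121 CPM in KO. Replicate 1 was the lowest of its group in all 4 groups, and with equal numbers compared, KO was below WT in every pair. The averaged log2 difference was -0.80 (SE 0.28, edgeR adjusted p = 0.0407), and passed in 5 of 12 fits that left out a library, and reached 0.0953 when treated WT lost replicate 2. The untreated difference of -0.82 had an adjusted p of 0.164, and 0.00678 under the replicate block. The treated difference of -0.78 had 0.204, and 0.0137 under the block. Without the libraries numbered 1 the untreated difference of -0.79 (adjusted p = 0.0119) and the treated one of -0.83 (adjusted p = 0.0110) both passed. HDAC10, the other class IIb member, had 38.1, 34.4 and 38.7 CPM in untreated WT and 43.7, 24.5 and 55.9 CPM in untreated KO, and its averaged log2 difference was 0.32 (SE 0.26, 95% interval -0.24 to 0.88, adjusted p = 0.372).

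Members differed in how replicate 1 sat in its group. HDAC4, HDAC5, HDAC6 and HDAC9 had their lowest level in replicate 1 in 4 of 4 groups, and HDAC1 and HDAC2 in 0 of 4. Under the replicate block the adjusted p of HDAC4 and HDAC6 dropped below the threshold, while their differences stayed between -0.85 and -0.65 with and without it.

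Class totals were summed per kb of transcript, as a description with no test. Class IIa made up 21.4%, 22.8% and 21.8% of the family's summed level in untreated WT and 14.5%, 14.2% and 15.4% in treated WT. It made up 7.31%, 13.0% and 14.1% in untreated KO and 7.98%, 12.5% and 13.8% in treated KO. Untreated WT was above all other libraries. In WT the class I share was 61.8% ± 3.13 untreated and 70.4% ± 5.20 treated, and in KO it was 76.0% ± 6.57 and 77.1% ± 7.59 (SD, n = 3). The class IIb share was 16.2% ± 2.50, 14.9% ± 5.03, 12.6% ± 3.19 and 11.5% ± 4.58 in the same order. By mean level, class IIa fell from 68.9 CPM per kb in untreated WT to 32.6 in untreated KO, mostly through HDAC7, while class I went from 194 to 220 CPM per kb, with HDAC1 higher and HDAC3 lower.

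**Figure D3:**
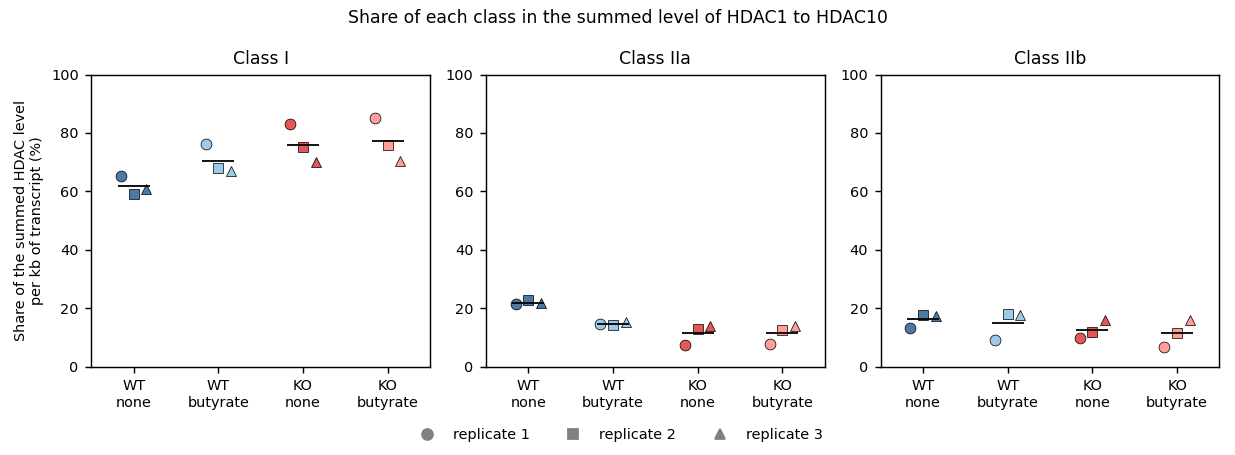
Share of each class in the summed level of HDAC1 to HDAC10 per kb of transcript, in percent, for each of the 12 libraries; bars are group means of 3. Class IIa is at 21.4% to 22.8% in untreated WT and at or below 15.4% elsewhere, and the libraries numbered 1 have the highest class I share in every group.

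The chromosomal neighbours of each member were then set beside it, as a description chosen after the values had been seen. For the 10 nearest tested genes on each side, the median log2 difference between KO and WT, averaged over treatments, was 0.63 around HDAC1, equal to HDAC1 itself at 0.63, and 19 of these 20 neighbours were above 0. Around HDAC6 the median was -0.75, beside -0.80 for HDAC6, with 18 of 20 below 0, among them the adjacent GATA1, the erythroid master regulator, at -0.77. Around HDAC3 it was -0.41, beside -0.65, with 17 of 20 below 0, and 7 of the 20 were protocadherin beta and gamma genes, which share exons or are near copies. The HDAC3 median was -1.06 over 5 genes on each side and -0.28 over 20.

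HDAC4 stood at -0.66 with a neighbour median of -0.36 (15 of 20 below 0), and HDAC10 at 0.32 with 0.38 (16 of 20 above 0). For HDAC2, HDAC5 and HDAC8 the neighbour medians were 0.10, -0.06 and 0.17. HDAC7 was the member farthest from its neighbours, at -0.94 with a median of -0.38 and 13 of 20 below 0, and that median was -0.28 over 5 genes on each side and -0.06 over 20. Its distance from them was -1.18 in untreated cells and 0.02 in treated cells. Over 15165 genes treated the same way, such neighbour medians had a 5th to 95th percentile range of -0.77 to 0.73. The genotype differences of HDAC1 and HDAC6 were thus close to the medians around them, while that of HDAC7 in untreated cells was wider. The part of the neighbourhoods in these differences was not tested.

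**Figure D4:**
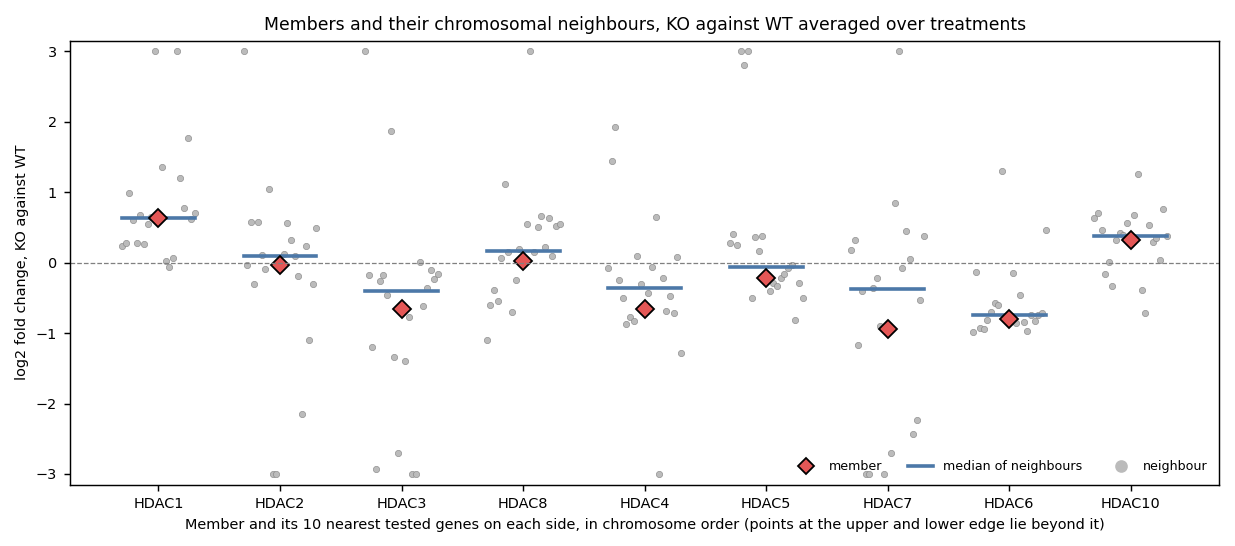
Log2 fold change of KO against WT, averaged over treatments, for 9 members (diamonds), their 20 nearest tested genes (grey points, in chromosome order) and the median of these (line). The diamond lies on the line for HDAC1 (0.63) and near it for HDAC6 (-0.80 and -0.75), and below it for HDAC7 (-0.94 and -0.38); 16 points beyond the axis limit of 3 are drawn at its edge.

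The partners of the deacetylases were counted from lists drawn up for this family. Of 47 tested subunits of the class I complexes, 10 were higher and 1 lower in KO averaged over treatments, with a median log2 difference of 0.06 beside 0.01 for all genes. The shares of all genes in this contrast were 19.0% higher and 17.5% lower, 36.6% together. The share of subunits higher was thus near that of all genes, and the share lower was below it. Together 11 of the 47 were called, a smaller share than of all genes. In NuRD, the remodelling complex, the higher ones included MTA3 (0.87, edgeR adjusted p = 0.00121), MTA1 (0.61, adjusted p = 0.00725) and RBBP4 (0.77, adjusted p = 0.00226), and RBBP4 was the seventh tested gene after HDAC1 on its chromosome. The 1 lower subunit was CORO2A of the NCoR complex (-1.45, adjusted p = 0.000188), the complex of HDAC3. With butyrate, averaged over genotypes, 4 of the 47 rose and 2 fell, shares near the 9.22% and 5.37% of all genes. CHD3, a NuRD helicase, fell by 0.91 on the log2 scale (adjusted p = 0.00309), and CORO2A rose by 1.12 (adjusted p = 0.00566).

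Of 16 tested partners of class IIa enzymes, 3 were higher and 5 lower in KO, with a median of -0.26, beside 19.0% higher and 17.5% lower among all genes. Their DNA-binding targets split: MEF2A rose by 1.23 (SE 0.15, edgeR adjusted p = 4.12e-05) and MEF2C fell by 1.33 (SE 0.14, adjusted p = 1.27e-05), while MEF2D differed by -0.10 (95% interval -0.51 to 0.31). MEF2A had 17.5 to 25.1 CPM in untreated WT and 45.1 to 64.3 CPM in untreated KO, without overlap. MEF2C had 63.2 to 72.4 CPM in untreated WT and 30.5 to 32.3 CPM in untreated KO. PRKD2, a kinase that sends class IIa enzymes out of the nucleus, fell by 0.97 (adjusted p = 0.0114). None of the 16 passed for butyrate averaged over genotypes.

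Of 12 tested partners of class IIb enzymes, 1 was higher and 4 lower in KO, with a median of -0.34, and 1 fell with butyrate, beside 36.6% of all genes called in the former contrast and 5.37% lower in the latter. ATAT1, the acetyltransferase that opposes HDAC6 on tubulin, rose by 2.28 in KO (SE 0.20, edgeR adjusted p = 2.94e-06), from 13.8, 19.1 and 13.8 CPM in untreated WT to 54.9, 60.9 and 54.9 CPM in untreated KO. The polyamine genes SAT1 (-1.21, adjusted p = 0.0455) and PAOX (-0.88, adjusted p = 0.0367) fell. Acetyl-tubulin and polyamines were not measured. Among the class IIb partners, SIRT2 was listed again with the deacetylases outside HDAC1 to HDAC10, so those lists share a gene.

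For each tested member the 2 genes most like it over the 12 libraries were listed by Pearson's r of log2 CPM, among 12466 genes with a mean of at least 50 counts. The 12 libraries fall into 2 genotypes with shared replicate numbers, so r is given as a description. HDAC6 was closest to NLRP1 (r = 0.985) and DIP2A (0.980), HDAC3 to TYW1B (0.980) and TDH (0.965), and HDAC1 to RNF8 (0.978) and PNP (0.964). HDAC4 was closest to ZKSCAN1 (0.974) and MAP3K14-AS1 (0.966), HDAC7 to FXYD5 (0.964) and VASP (0.964), and HDAC5 to ZNF311 (0.946) and CYB561D1 (0.942). HDAC2 was closest to SEPTIN7 (0.941) and DCTN6 (0.937), HDAC10 to GPX4 (0.908) and PACSIN3 (0.883) and HDAC8 to ITM2A (0.771) and BPGM (0.749).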

How the data were processed

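The authors deposited raw counts for 12 libraries in 1 table keyed by gene symbol; that these are counts follows from the whole numbers and unequal sums. Per the submitters' processing notes, FastQC 0.12.1, STAR 2.7.11b and hg38 were used; the counting tool, gene annotation and use of strand are not given in the sources used here, so overlapping and antisense genes can carry reads of each other. Groups and replicate numbers came from the sample titles, 0 columns were left unused and 0 rows named no gene. The members, lists and tests were chosen with earlier results of these data known.

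Of 28278 genes, 6319 had 0 counts throughout, and filterByExpr (minimum count 10) kept 15805. Counts were fitted in R 4.3.3 with edgeR 4.0.16 (TMM scaling, a mean per group over all 12 libraries, quasi-likelihood F-test), with Benjamini-Hochberg adjustment over all tested genes and a threshold of 0.05. 7 contrasts were tested: butyrate in WT, in KO and averaged, KO against WT untreated, treated and averaged, and the interaction. The common biological coefficient of variation was 0.384. On simulated counts with 200 changed genes the code was checked. Their spread was a fixed setting and not that of these data, so the check does not measure power here. DESeq2 1.42.0, other scalings and filters, the replicate block and left-out libraries were the alternatives; the exon union length and other neighbourhood sizes were added after seeing the data.

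Replicate numbers in the titles were checked for pairing. Deviations from group means correlated at 0.147 to 0.595 for each same-numbered pair, and at -0.512 to 0.343 for different numbers, with overlap of these ranges. The numbers were taken to pair the libraries, which the fit with the replicate block uses and the main fit does not. Replicates of a group differed by a chi-square of at least 37.2 per degree of freedom, so none was counted as a repeat deposit. Transcript lengths came from GENCODE v29, positions and promoters from RefSeq (GRCh38.p14). HDAC2, HDAC4, HDAC5, HDAC7, HDAC8 and HDAC9 overlap other annotated genes; apart from SLC48A1, the overlapping genes in the table had at most 42 counts in a library. Named genes are all members, listed partners past the threshold (up to 3 per list and contrast, by size), a few fixed partners whatever their values, adjacent genes, and the 2 most correlated genes per member. The result for 1 listed gene is not reported here.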

Additional observations from a re-analysis of the deposited data

How the results depend on the processing

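Alternative values were counted for a set of reported differences only, and not for every tested member in every contrast. Of these 551 values, 481 kept their direction and side of the threshold. Of the others, 41 lost a call, 19 gained one and 10 changed sign, of which 0 passed the threshold. Sign changes outside that set were not counted. With the replicate block 1 member was called for butyrate in WT, beside 8.61% of all genes, and 1 for averaged butyrate, beside 26.5%. In that fit 5 passed for KO against WT untreated and 4 treated, beside 33.0% and 29.2%. Beyond HDAC2, HDAC4, HDAC6 and HDAC7 the block changed no call on a member. DESeq2 and the fit with no filter each called 1 member for butyrate in WT, beside 8.06% and 2.04% of all genes. No filter left 1 for KO against WT in untreated and 1 in treated cells, beside 15.5% and 12.9%. Library size alone left 3 for the averaged genotype, beside 35.6% of all genes. Fitting only the groups compared left 0 for treated genotype, beside 11.7%. Without the libraries numbered 1 there was 1 for butyrate in WT and 3 for averaged butyrate, beside 11.4% and 28.8% of all genes. With a library left out, members called ranged from 0 to 1 for butyrate in WT, beside 0.262% to 7.63% of all genes. For averaged butyrate they ranged from 0 to 1, beside 7.34% to 23.3%. For untreated genotype they ranged from 1 to 2, beside 15.1% to 17.4%, and for treated genotype from 0 to 2, beside 12.3% to 21.4%. For averaged genotype they ranged from 3 to 5, beside 30.9% to 40.3%. Sign changes touched values near 0: the averaged genotype difference of HDAC2 was 0.0038 with library size alone and -0.128 to 0.0477 with a library left out, that of HDAC8 -0.0460 without the libraries numbered 1 and -0.0457 to 0.0604 with one left out, and HDAC7 under butyrate in KO -0.10 to 0.50. The cause was not tested.

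Calls over all genes moved by over 1.5 times as follows. DESeq2 called 1296 genes for butyrate in WT, 1490 in KO and 81 for the interaction, and the replicate block 1361, 1852 and 3, with 4612 for treated genotype and 4196 for averaged butyrate. At least 10 counts in every library, which tests fewer genes, left 304 for butyrate in KO, 2334 and 1947 for genotype untreated and treated and 1 for the interaction, and no filter 2 for the interaction. Only the groups compared gave 63 for butyrate in WT and 1802 for treated genotype. Without the libraries numbered 1 the counts were 1884, 2164, 9 and 4735 for butyrate in WT, in KO, interaction and averaged butyrate. Leaving out a library gave 43 to 1243 for butyrate in WT, 48 to 833 in KO, 0 to 2 for the interaction and 1198 to 3795 for averaged butyrate. In those fits the genotype calls stayed within 1.5 times, at 2485 to 2844 beside 3574 untreated and 2014 to 3477 beside 3009 treated. The class IIa share depends on the length used: per coding length it was 17.3% in untreated and 12.6% in treated WT, by exon union 16.6% in treated WT, and with no length 28.5%, 22.1%, 17.0% and 18.1% in untreated WT, treated WT, untreated KO and treated KO; untreated WT stayed the highest group under each. HDAC9 did not pass the filter on low counts.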

Other observations

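The deacetylases outside HDAC1 to HDAC10 also differed with genotype. Of HDAC11, the one class IV enzyme, and the 7 NAD-dependent sirtuins, all 8 tested, 5 were lower in KO averaged over treatments, with a median log2 difference of -0.55 beside 0.01 for all genes, of which 17.5% were lower. HDAC11 fell by 1.48 log2 units (SE 0.44, edgeR adjusted p = 0.0196), SIRT7, a nucleolar sirtuin, by 1.00 (SE 0.19, adjusted p = 0.00123) and SIRT3, a mitochondrial one, by 0.63 (SE 0.21, adjusted p = 0.0283).

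With butyrate, averaged over genotypes, 2 of these 8 rose, beside 9.22% of all genes. HDAC11 had 7.26, 11.7 and 9.99 CPM in untreated WT and 5.91, 33.3 and 34.4 CPM in treated WT, and 2.25, 1.33 and 3.48 CPM in untreated KO and 4.73, 15.1 and 18.7 CPM in treated KO. In treated cells replicate 1 was the lowest of both genotypes, and in WT it lay below all untreated libraries. The averaged rise was 1.89 (SE 0.45, adjusted p = 0.0169). SIRT6, a chromatin-bound sirtuin, rose by 0.54 (SE 0.15, adjusted p = 0.0332), from 22.9 to 30.1 CPM in untreated WT to 36.5 to 45.5 CPM in treated WT.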
